A study of Mus musculus with 12 samples.

Results

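This report describes the 9 dual-specificity phosphatase genes that restrain MAP kinases and that could be measured in mouse CD8+ T cells: Dusp1, Dusp2, Dusp4, Dusp5, Dusp6, Dusp7, Dusp8, Dusp10 and Dusp16. They are 9 of 13882 named genes and of 25738 features kept on the arrays, where a feature is a named gene or a probe with no gene name. A gene entered through its brightest probe that was well above background, a call of the scanner software, on 2 or more of 12 arrays. A further phosphatase of the family, Dusp9, was well above background on 0 of the 12 arrays and is not a member. The dimmest member by that rule was Dusp8, whose probe was well above background on 10 arrays, and a second Dusp8 probe reached 4 arrays. The family was proposed with its levels in total cells of the genotypes already seen, so the members count as chosen by those values, and the genotype differences of total cells are given as a description. Counts of members past a threshold in those comparisons describe the choice and are no test of it.

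MAP kinases (ERK, JNK and p38) carry signals from the T cell receptor and from stress to the nucleus, where they switch on transcription factors and early response genes. Dual-specificity phosphatases remove the phosphates from both the threonine and the tyrosine of the activation loop and so turn the kinases off. Several of the phosphatase genes are themselves early response genes, which closes a negative feedback loop, and they differ in their preferred kinase and in whether they work in the nucleus or the cytoplasm.

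RNA from CD8+ T cells of female C57BL/6 mice was labelled with Cy3 and hybridised to Agilent 1-colour arrays, 1 sample per array. The source of the total CD8+ T cells was either the peripheral nodes (PLN) or the gut-draining mesenteric nodes (MLN). They comprised 2 WT PLN arrays, 2 WT MLN arrays and 1 array per site of AID KO and of uMT. Naive (CD44low) CD8+ T cells came from PLN of AID KO and uMT mice, sorted into Sca1p and Sca1m, taken to mean with and without surface Sca-1, with 1 array each and no WT array. The labels name no treatment, age or number of animals. The uMT mutation removes the membrane-bound IgM heavy chain, and such mice lack mature B cells. Neither change is confined to CD8+ T cells, so the T cells themselves carry it and also developed in the changed animal. Nothing says that samples of a group came from separate animals and the submitters describe a design without replicates, so errors measure only how these samples depart from an additive fit. Standard errors come from that fit over all 12 arrays and are marked SE.

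Levels are log2 intensities relative to the 75th percentile of the same array, so they compare 1 probe across arrays and not one gene with another. The unscaled 75th percentile ranged from 431.5 to 786.9 intensity units, between 50.1% and 56.8% of spots were well above background, and 0 spots were saturated. The number of arrays limits the precision. The arrays stood on 3 slides, with all naive arrays together on the third, and naive arrays are set against naive arrays alone. All 5 CD8 T cell markers and all 5 naive T cell markers were well above background on every array. Sca-1 itself, Ly6a, stood at 3.87 and 3.40 in the Sca1p arrays and at 0.03 and -0.10 in the Sca1m arrays. The genotypes are written as labelled throughout, every direction involving AID KO or uMT rests on those labels, and no check of a targeted gene is given here.

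The sequences upstream of 4 members are shown to set members with large differences between genotypes beside members with small ones. Each is the 250 bases before the start of the gene in RefSeq (assembly GRCm38.p6), 5′ to 3′ on the strand of the gene. Capitals mark 3 motifs: the cAMP response element TGACGTCA, its core TGACG, which overlaps the full element, and the CArG box, the binding sequence of serum response factor. Dusp1 and Dusp5 had the largest differences among members with an entry, Dusp8 holds the same element as Dusp1, and Dusp7 stood on the other side of WT.
Dusp1, chr17:26508473-26508722, minus strand: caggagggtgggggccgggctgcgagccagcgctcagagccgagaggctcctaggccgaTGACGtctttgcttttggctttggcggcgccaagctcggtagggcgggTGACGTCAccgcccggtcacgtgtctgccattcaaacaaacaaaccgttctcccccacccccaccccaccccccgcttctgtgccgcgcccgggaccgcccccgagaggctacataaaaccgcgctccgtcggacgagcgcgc
Dusp5, chr19:53528895-53529144, plus strand: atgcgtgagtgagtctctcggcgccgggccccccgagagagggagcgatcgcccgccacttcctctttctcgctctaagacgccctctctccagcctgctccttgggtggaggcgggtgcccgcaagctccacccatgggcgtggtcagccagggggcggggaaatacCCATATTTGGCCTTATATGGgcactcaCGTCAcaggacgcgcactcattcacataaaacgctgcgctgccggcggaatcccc
Dusp8, chr7:142095285-142095534, minus strand: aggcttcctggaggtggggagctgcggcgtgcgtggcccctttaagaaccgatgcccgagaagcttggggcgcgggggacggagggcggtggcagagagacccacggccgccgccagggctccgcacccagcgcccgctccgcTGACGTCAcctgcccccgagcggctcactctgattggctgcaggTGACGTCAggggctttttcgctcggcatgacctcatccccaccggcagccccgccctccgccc
Dusp7, chr9:106368382-106368631, plus strand: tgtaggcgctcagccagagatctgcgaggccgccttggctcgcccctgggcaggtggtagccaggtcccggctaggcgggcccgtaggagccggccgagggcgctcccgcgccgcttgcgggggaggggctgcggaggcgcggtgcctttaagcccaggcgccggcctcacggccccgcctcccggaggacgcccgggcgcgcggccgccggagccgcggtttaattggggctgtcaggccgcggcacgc

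Motifs were searched on both strands upstream of the 8 members with an entry, which left out Dusp4. Dusp1 held 1 TGACGTCA from base -143 to -136 before the start, and Dusp8 held 2, beginning at -107 and -63. That element was present in 1.55% of all 32851 promoters of the same length. Dusp5 held 2 CArG boxes next to each other, from -82 to -73 and from -72 to -63, a motif present in 1.47% of promoters. The core TGACG also matched outside these elements, once each in Dusp1 (-191 to -187), Dusp5 (-55 to -51) and Dusp16 (-70 to -66), and was present in 17.8% of promoters. The AP-1 site TGANTCA (6.75% of promoters) and the EGR site GCGTGGGCG (0.536%) matched none of the 8 members. Dusp2, Dusp6, Dusp7 and Dusp10 held none of these letters. Matches were held by Dusp1 and Dusp5, with log2 differences below -1 for AID KO against WT, and by Dusp8 and Dusp16, with smaller ones. The part of these motifs in the differences was not tested. A match is a run of letters and not a bound site.

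**Figure D1:**
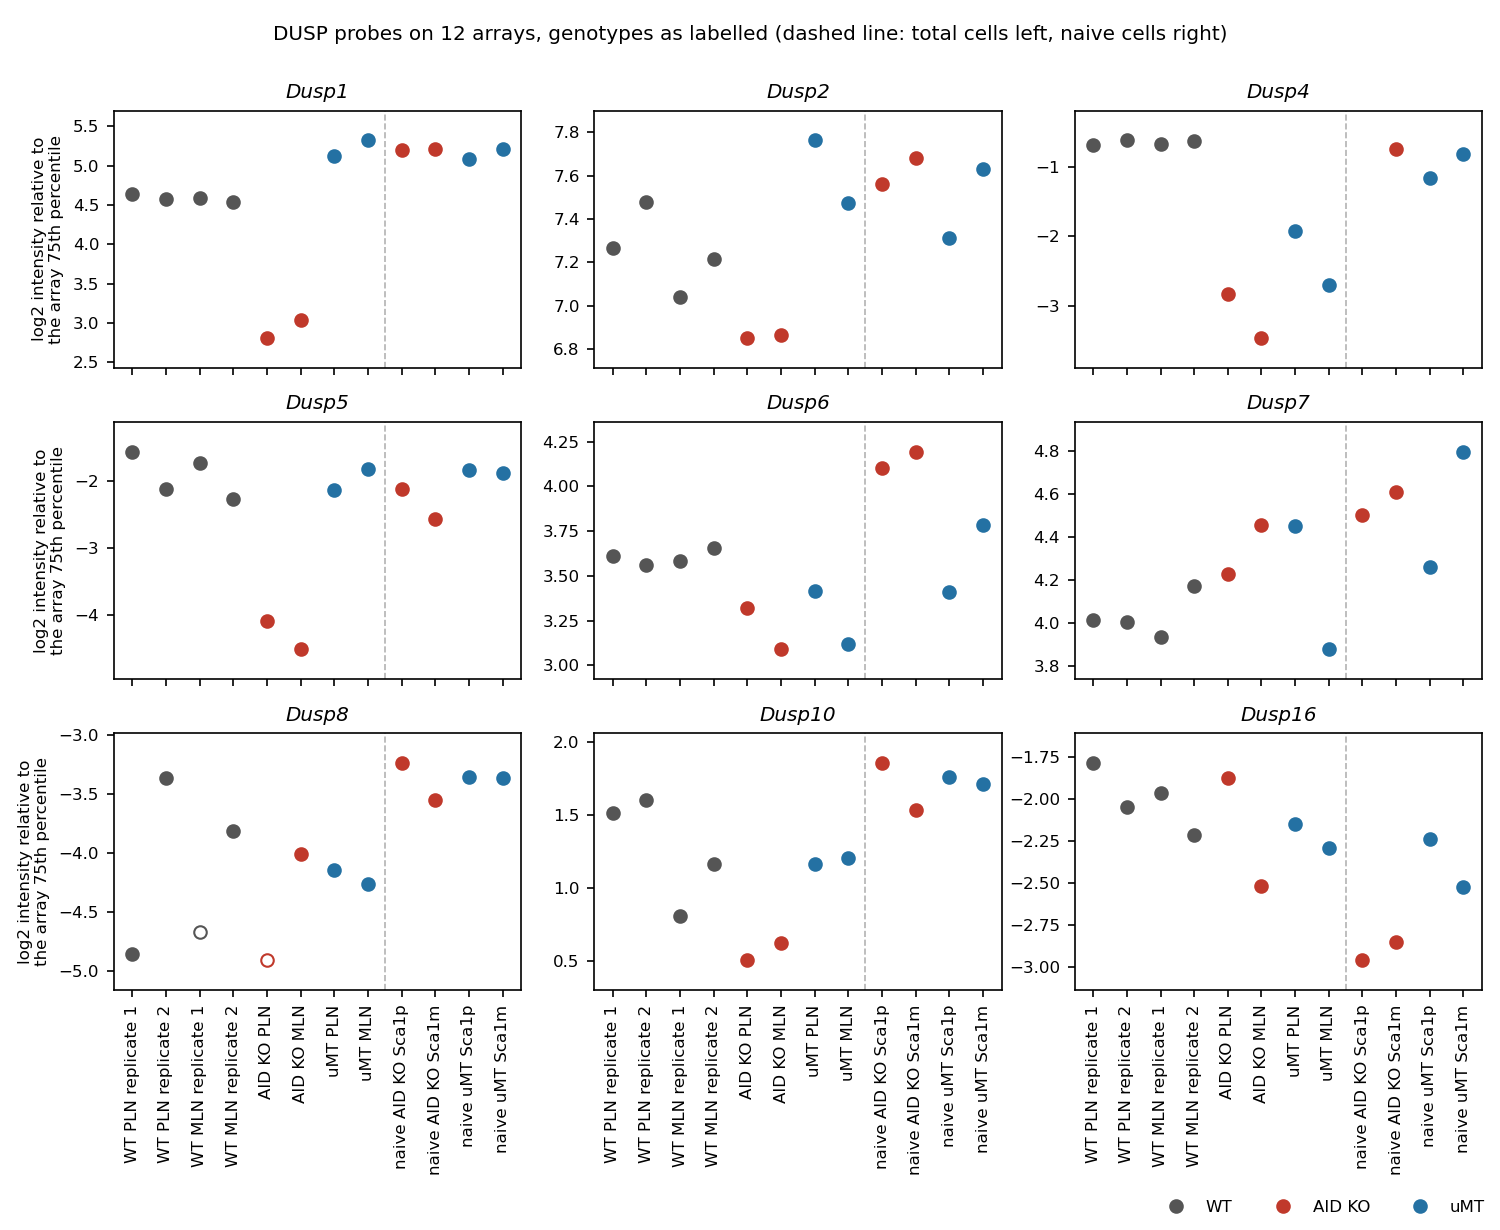
Level of each member (vertical axis, log2 intensity relative to the 75th percentile of the array) on each of the 12 arrays (horizontal axis), coloured by labelled genotype; 1 point is 1 array, open points are not well above background, and the Dusp4 spot of the naive AID KO Sca1p array was left out. Dusp1, Dusp4 and Dusp5 stood lowest on both total-cell arrays labelled AID KO, and in naive cells the Dusp1 levels lay between 5.08 and 5.21.

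Among the nuclear phosphatases, Dusp1, Dusp4 and Dusp5 had the widest ranges of the 9 members in total cells. Dusp1, the phosphatase of p38, JNK and ERK that is induced by stress and growth signals, stood at 4.64 and 4.58 in the WT PLN arrays and at 4.58 and 4.54 in the WT MLN arrays. It stood at 2.81 (PLN) and 3.04 (MLN) in the arrays labelled AID KO and at 5.12 (PLN) and 5.32 (MLN) in the uMT arrays. The 3 genotypes did not overlap, in the order AID KO, WT, uMT, and the WT arrays spanned only 0.10 log2 units across both slides. Against WT, the log2 difference of Dusp1 was -1.66 ± 0.10 SE (3.16-fold lower) in the arrays labelled AID KO and 0.64 ± 0.10 SE (1.56-fold higher) in uMT. Within a slide and site, the difference from WT was -1.83 (PLN) and -1.5 (MLN) for AID KO and 0.54 (PLN) and 0.74 (MLN) for uMT. These pairs use a different WT array for each genotype at a site. In bulk RNA, fewer cells with a transcript and less of it per cell cannot be told apart, here and below.

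Dusp5, a nuclear phosphatase specific for ERK, stood at -1.56 and -2.11 in WT PLN and at -1.72 and -2.27 in WT MLN. Its levels were -4.08 (PLN) and -4.51 (MLN) in the arrays labelled AID KO and -2.13 (PLN) and -1.82 (MLN) in uMT. Both AID KO arrays lay below every other array, while uMT overlapped WT. The difference was -2.38 ± 0.12 SE (5.21-fold lower) for AID KO against WT and -0.05 ± 0.12 SE for uMT against WT. The WT arrays of slide 2 stood 0.56 (PLN) and 0.55 (MLN) below those of slide 1, so the comparison within a slide matters for this gene. It gave -2.53 (PLN) and -2.24 (MLN) for AID KO and -0.01 (PLN) and -0.09 (MLN) for uMT. With normexp background correction in place of the processed intensity the AID KO difference was -1.29, in the same direction.

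Dusp4, a nuclear phosphatase of ERK, JNK and p38, was lower in both knockouts. It stood at -0.69 and -0.61 in WT PLN and at -0.67 and -0.63 in WT MLN. It stood at -2.83 (PLN) and -3.46 (MLN) in the arrays labelled AID KO and at -1.92 (PLN) and -2.71 (MLN) in uMT. The WT arrays spanned 0.07 and lay above all knockout arrays, and the AID KO arrays lay below both uMT arrays. The difference from WT was -2.50 ± 0.21 SE (5.64-fold lower) for AID KO and -1.67 ± 0.21 SE (3.17-fold lower) for uMT. In each knockout the MLN array stood below the PLN array, by 0.63 for AID KO and 0.78 for uMT across slides, while the WT sites differed by 0.02 and -0.01. Without the uMT MLN array the uMT difference was -1.30, and without the uMT PLN array it was -2.03.

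Dusp2, a nuclear phosphatase known from activated T cells, followed the order of Dusp1 with smaller differences. It stood at 7.26 and 7.48 in WT PLN, 7.04 and 7.22 in WT MLN, 6.85 and 6.87 in the arrays labelled AID KO, and 7.76 (PLN) and 7.47 (MLN) in uMT. The AID KO arrays lay below all WT arrays, and the uMT MLN array overlapped WT. Dusp2 differed from WT by -0.39 ± 0.09 SE (1.31-fold lower) in AID KO and by 0.37 ± 0.09 SE (1.29-fold higher) in uMT. The WT range of 0.44 was wider than either difference, and the pairs within a slide and site gave -0.41 and -0.35 for AID KO and 0.28 and 0.43 for uMT.

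**Figure D2:**
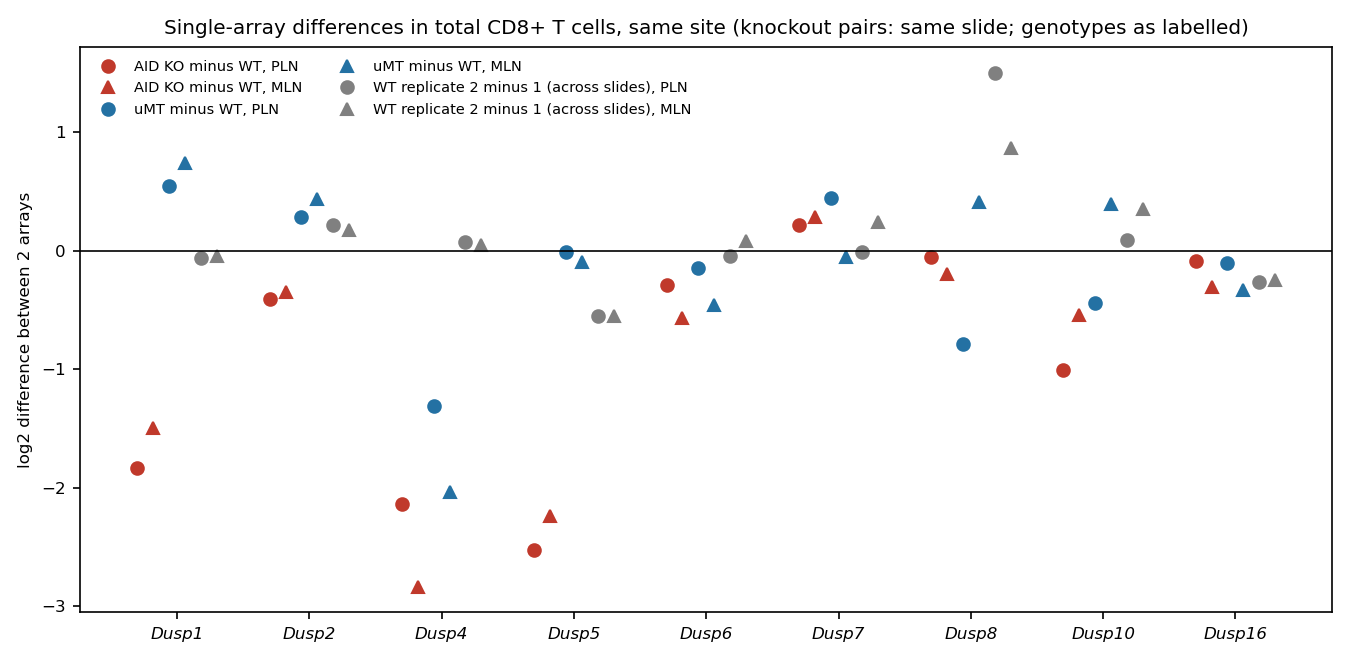
Difference between 2 arrays of the same site (vertical axis, log2) for each member (horizontal axis): knockout minus the WT array of its slide, with circles for PLN and triangles for MLN, and in grey WT replicate 2 minus 1 across slides. For Dusp1, Dusp4 and Dusp5 both AID KO points lie near or below -1.5, and for Dusp8 the WT arrays themselves differ by 1.5 and 0.86.

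The cytoplasmic phosphatases of ERK, Dusp6 and Dusp7, differed less and in opposite directions. Dusp6 stood at 3.61 and 3.56 in WT PLN, 3.58 and 3.66 in WT MLN, 3.32 (PLN) and 3.09 (MLN) in the arrays labelled AID KO, and 3.42 (PLN) and 3.12 (MLN) in uMT. All 4 knockout arrays lay below all 4 WT arrays, which spanned 0.10, and the knockouts overlapped each other. The differences from WT were -0.40 ± 0.12 SE (1.32-fold lower) for AID KO and -0.33 ± 0.12 SE (1.26-fold lower) for uMT. Dusp7 stood at 4.01 and 4.0 in WT PLN, 3.93 and 4.17 in WT MLN, 4.23 (PLN) and 4.45 (MLN) in the arrays labelled AID KO, and 4.45 (PLN) and 3.88 (MLN) in uMT. Both AID KO arrays lay above WT, by 0.31 ± 0.15 SE, and the uMT arrays spanned the WT range. Dusp7 was the 1 member of 9 that stood higher than WT in the arrays labelled AID KO.

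Dusp8, Dusp10 and Dusp16 act mainly on JNK and p38. Dusp10 stood at 1.52 and 1.60 in WT PLN, 0.81 and 1.17 in WT MLN, 0.51 (PLN) and 0.62 (MLN) in the arrays labelled AID KO, and 1.16 (PLN) and 1.20 (MLN) in uMT. The AID KO arrays lay below all others, and uMT lay within the WT range. The AID KO difference was -0.71 ± 0.20 SE (1.64-fold lower), and it was -1.01 in PLN and -0.54 in MLN within a slide. In WT the MLN arrays stood 0.70 and 0.44 below the PLN arrays of their slide, while in the knockouts, across slides, MLN stood 0.12 (AID KO) and 0.04 (uMT) above PLN.

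Dusp16 stood at -1.78 and -2.05 in WT PLN, -1.96 and -2.21 in WT MLN, -1.88 (PLN) and -2.52 (MLN) in the arrays labelled AID KO, and -2.15 (PLN) and -2.29 (MLN) in uMT. The 3 genotypes overlapped, with differences from WT of -0.20 ± 0.12 SE for AID KO and -0.22 ± 0.12 SE for uMT. Dusp8 was dim: it stood at -4.86 and -3.36 in WT PLN, -4.67 and -3.81 in WT MLN, -4.91 (PLN) and -4.01 (MLN) in the arrays labelled AID KO, and -4.15 (PLN) and -4.26 (MLN) in uMT. It was not well above background on the WT MLN array of slide 1 and the AID KO PLN array. The WT arrays spanned 1.5 log2 units, more than either fitted difference (-0.28 ± 0.26 SE for AID KO, -0.03 ± 0.26 SE for uMT). A second Dusp8 probe, well above background on 1 of the 8 total-cell arrays, gave -1.34 for AID KO against WT and -0.42 for uMT against WT.

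Counted over the family, 6 of 9 members (Dusp1, Dusp2, Dusp4, Dusp5, Dusp6 and Dusp10) had both arrays labelled AID KO below all 4 WT arrays, against 8.29% of all features, and 1 (Dusp7) had both above, against 9.22%. At a log2 difference of -1 or lower there were 3 members (Dusp1, Dusp4, Dusp5) against 1.77% of features, and the same 3 were among the features with an adjusted p under 0.05 and a lower level, which were 0.664% of all (0.894% in either direction). For uMT against WT, 2 members (Dusp4, Dusp6) lay below all WT arrays, against 8.95% of features, and 1 (Dusp1) above, against 10.1%. One member, Dusp4, was at -1 or lower in uMT, against 1.36% of features, and 0.035% of features had an adjusted p under 0.05 there. Between the knockouts, 5 members (Dusp1, Dusp2, Dusp4, Dusp5, Dusp10) were higher in both uMT arrays than in both AID KO arrays, against 14.4%, and 2 (Dusp1 at 2.30 ± 0.12 SE and Dusp5 at 2.33 ± 0.13 SE) were higher by 1 or more, against 1.85%. At an adjusted p under 0.05, 0.229% of features were higher in uMT than in AID KO and 0.315% differed in either direction. The 3 members below WT at that threshold numbered 0 with slide and site as a block, 0 without the AID KO PLN or the AID KO MLN array and 2 without any 1 WT array, and the 2 between the knockouts numbered 0 without any 1 of the 4 knockout arrays of total cells. Because the members were chosen with these contrasts known, the shares describe the choice and nothing is read from them. The median of the 9 members was -0.40 for AID KO against WT, -0.05 for uMT against WT and 0.62 for uMT against AID KO, and the medians over all features were 0.01, -0.00 and -0.01. The comparisons with WT share the WT arrays.

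Other measures also differed between the genotypes of total cells. The summed linear level of 6 B cell markers was 5.92 to 6.77 in the arrays labelled AID KO, 3.93 to 4.93 in WT and 4.74 to 5.72 in uMT, and Cd79a and Blk were not well above background in AID KO. The sum of 4 NK cell markers was 1.81 to 2.03 in AID KO, 2.75 to 4.71 in WT and 3.38 to 7.33 in uMT, and Ncr1 was not well above background on any total-cell array. Of the 3 tested genes of that list, 2 were lower and 1 was higher in AID KO than in WT, with a median of -0.39. Klra4, 1 of the 2 lower genes, differed by -1.30 ± 0.19 SE between AID KO and WT (adjusted p = 0.0524, limma). The sum of the erythroid markers was 0.212 to 1.12 in AID KO, 0.0957 to 2.59 in WT and 0.746 to 4.93 in uMT, with Alas2 not well above background. Of these, the globin genes Hbb-bt (2.14 ± 0.57 SE, adjusted p = 0.181) and Hba-a1 (1.77 ± 0.48 SE, adjusted p = 0.183) had higher estimates in uMT than in WT without passing. For 10 markers of antigen-experienced CD8 T cells the sums were 83.3 to 97.9 in AID KO, 85.1 to 95.9 in WT and 97.3 to 107.3 in uMT, so uMT lay above WT and AID KO overlapped both, and Ifng fell in the arrays labelled AID KO (-1.47 ± 0.16 SE, adjusted p = 0.0257, limma), the 1 gene of the 9 marker lists that passed there. Of 12 heat shock genes, 11 stood lower in AID KO than in WT, against 48.1% of all features, with a median of -0.17, and 0 passed the test. Within a slide and site, 10 of the 12 were lower in PLN and 9 in MLN. The part of these measures in the DUSP differences was not tested.

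For site, Sca-1 fraction and genotype in naive cells, limma tested all features with adjustment by the Benjamini-Hochberg method. Whether these values were also seen when the members were chosen is not recorded, so the tests may not be independent of the choice. Between MLN and PLN in total cells, 0 of 9 members passed at an adjusted p of 0.05, against 0.105% of all features. An unadjusted p under 0.05 was reached by 2351 of 25738 features and by 2 members (Dusp2, Dusp16). Of the members, 7 of 9 stood lower in MLN, with a median of -0.11 against -0.01 over all features, of which 54.1% were lower. Dusp16 gave the largest difference with such a p, -0.28 ± 0.09 SE (95% interval -0.52 to -0.05, adjusted p = 0.459), and Dusp2 gave -0.19 ± 0.07 SE (-0.36 to -0.02, adjusted p = 0.507). Dusp2 was lower in the MLN array of both WT pairs (-0.22 and -0.26) and of uMT (-0.29) and not of AID KO (0.01). The globin genes Hbb-bt (4.05 ± 0.47 SE, adjusted p = 0.0694) and Hba-a1 (3.09 ± 0.39 SE, adjusted p = 0.0860) had higher estimates in MLN than in PLN without passing, and their part in the site differences was not tested. The interval for Dusp1 was -0.12 to 0.29 and that for Dusp5 -0.34 to 0.12, so a site difference as large as the AID KO difference of either gene lies outside its interval. For Dusp4 (-0.35 ± 0.17 SE, -0.80 to 0.09, adjusted p = 0.648) and Dusp10 (-0.25 ± 0.16 SE, -0.64 to 0.15, adjusted p = 0.735) the additive estimate averages WT and knockouts that differed in their site difference, as given above.

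**Figure D3:**
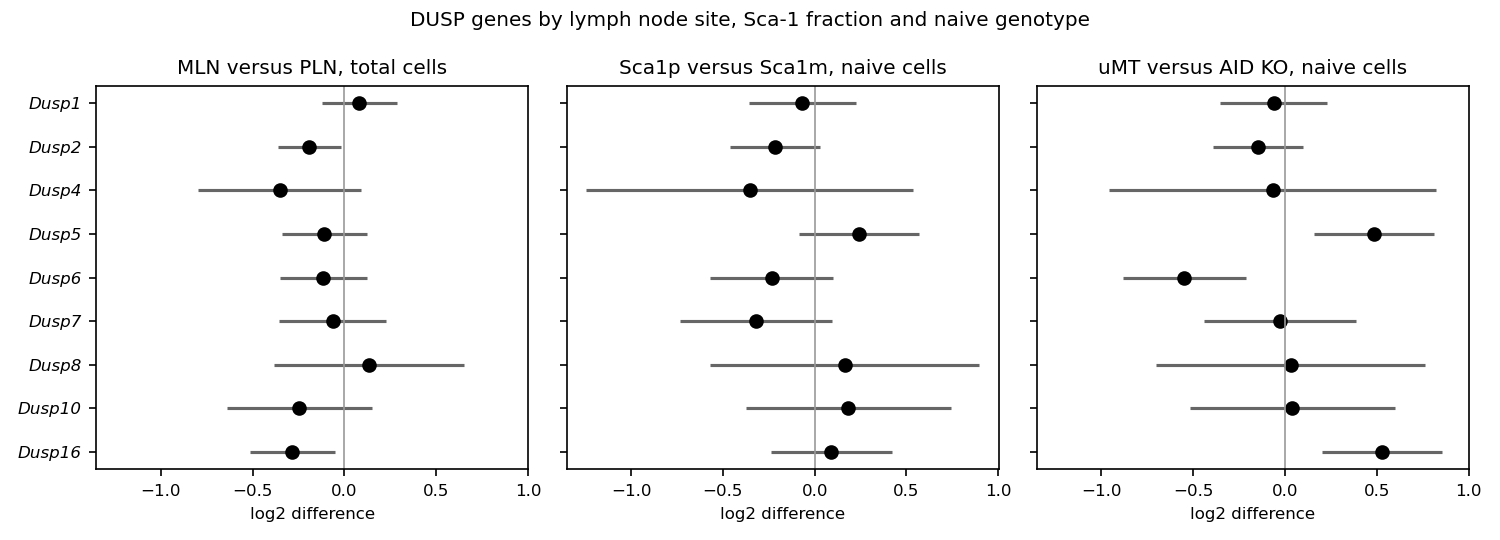
Fitted log2 difference (horizontal axis) of each member with its 95% interval (bar) for MLN minus PLN in total cells, Sca1p minus Sca1m in naive cells and uMT minus AID KO in naive cells, genotypes as labelled. None passes at an adjusted p of 0.05 in the limma fit, and the intervals of Dusp5, Dusp6 and Dusp16 in the naive genotype comparison leave out 0. In that comparison 2292 of 25734 features had an unadjusted p under 0.05.

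In naive cells the levels of Dusp1 were 5.20 (AID KO, Sca1p), 5.21 (AID KO, Sca1m), 5.08 (uMT, Sca1p) and 5.21 (uMT, Sca1m), the narrowest range of the 9 members. Dusp2 stood at 7.56, 7.68, 7.31 and 7.63 in the same order, and Dusp5 at -2.12, -2.56, -1.84 and -1.88. The naive Dusp1 levels of the genotypes overlapped, and Dusp5 was lower in the AID KO array of both fractions. Dusp6 stood at 4.10, 4.19, 3.41 and 3.79, and Dusp16 at -2.96, -2.86, -2.24 and -2.53. These also separated the genotypes without overlap, Dusp6 lower in uMT and Dusp16 higher.

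Between uMT and AID KO in naive cells, 0 of 9 members passed in the limma fit, against 0.35% of features. An unadjusted p under 0.05 was reached by 2292 of 25734 features and by 3 members. These were Dusp6 (-0.55 ± 0.14 SE, 1.46-fold lower in uMT, 95% interval -0.88 to -0.21, adjusted p = 0.268), Dusp16 (0.53 ± 0.13 SE, 0.20 to 0.86, adjusted p = 0.279) and Dusp5 (0.48 ± 0.13 SE, 0.16 to 0.81, adjusted p = 0.317). Dusp6 lay below in both uMT arrays, against 13.7% of features, and Dusp5 and Dusp16 lay above, against 17.2%. Dusp1 differed by -0.06 ± 0.12 SE (-0.35 to 0.23, adjusted p = 0.994), beside 2.30 ± 0.12 SE for the same genotypes in total cells. Dusp7, Dusp8 and Dusp10 differed by 0.04 or less in size, with intervals reaching up to 0.76. The summed level of antigen-experienced markers was 21.5 to 25.9 over the naive arrays. These lay on a slide of their own, so the sum is not compared with total cells.

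Between the Sca1p and Sca1m fractions, 0 of 9 members passed in the limma fit, against 0.0155% of features. An unadjusted p under 0.05 was reached by 2155 of 25737 features and by 0 members. Dusp7 stood at 4.50 and 4.26 in Sca1p and at 4.61 and 4.80 in Sca1m (AID KO, then uMT), a difference of -0.32 ± 0.17 SE (95% interval -0.74 to 0.09, adjusted p = 0.687). Dusp2 (-0.22 ± 0.10 SE, adjusted p = 0.643) and Dusp6 (-0.23 ± 0.14 SE, adjusted p = 0.725) were also lower in Sca1p in the estimate, and Dusp5 was higher (0.24 ± 0.13 SE, adjusted p = 0.705). Of 8 members with 4 usable naive arrays, 3 (Dusp1, Dusp2, Dusp7) lay lower in both Sca1p arrays than in both Sca1m arrays, against 17.1% of features, and 2 (Dusp8, Dusp10) lay higher, against 18%. Dusp10 stood at 1.86 and 1.76 in Sca1p and at 1.54 and 1.71 in Sca1m, and Dusp8 at -3.24 and -3.36 against -3.55 and -3.37. For Dusp4 the AID KO Sca1p spot carried an outlier flag and was left out, which leaves -0.74 (AID KO, Sca1m), -1.16 (uMT, Sca1p) and -0.81 (uMT, Sca1m) and a Sca-1 difference of -0.35 ± 0.35 SE from the uMT pair alone. With that spot kept, at 1.36, the difference was 0.87 (adjusted p = 0.740), so the direction for Dusp4 hangs on 1 spot. Of 9 tested markers of antigen-experienced CD8 T cells, 6 were higher and 3 lower in Sca1p, with a median of 0.58, and 1 passed. Among them, Cxcr3 stood at 1.87 and 1.70 in Sca1p and at -0.39 and -0.31 in Sca1m (AID KO, then uMT). The part of these markers in the DUSP differences was not tested.

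The rest of the MAP kinase pathway was examined with 7 lists, of which 25 of 26 genes induced through MAP kinases could be tested (not Fosl1). Between the arrays labelled AID KO and WT, 10 of these 25 fell and 0 rose, 15 did not pass, and the median was -0.36. Fosl2, a subunit of the AP-1 transcription factor, fell by 1.34 (-1.34 ± 0.09 SE, adjusted p = 0.0063). Fos, another AP-1 subunit, fell from a mean of 5.10 to 3.71 (-1.40 ± 0.11 SE, adjusted p = 0.0119), and Cd69, an early activation antigen, from 3.15 to 2.23 (-0.92 ± 0.08 SE, adjusted p = 0.0175). The other 7 were Nr4a2, Jun, Klf4, Nr4a1, Maff, Junb and Atf3. Atf3, a stress-induced factor, was not well above background on the AID KO arrays and was at least 2.72-fold lower there, measured against the lowest signal called well above background. Between uMT and WT, 0 of 25 passed in the limma fit and the median was 0.09. The lowest adjusted p there were those of Btg2 (0.55 ± 0.08 SE, adjusted p = 0.0998) and Cd69 (0.47 ± 0.08 SE, adjusted p = 0.116), both above WT. Between uMT and AID KO, 5 of 25 were higher in uMT and 0 lower, with a median of 0.58: Cd69 (1.40 ± 0.10 SE, adjusted p = 0.0134), Fos (1.76 ± 0.13 SE, adjusted p = 0.0135), Klf4 (1.91 ± 0.19 SE, adjusted p = 0.0373), Jun and Fosl2.

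The list was chosen with earlier results of these arrays known, so it is no independent evidence of a direction. Its calls also rested on every total-cell array of the comparison. For AID KO against WT the count of 10 dropped to 0 without the WT PLN replicate 1, AID KO PLN or AID KO MLN array, to 1 without either WT MLN array and to 2 without the WT PLN replicate 2 array, while the median stayed between -0.40 and -0.36. With slide and site together as a block it was 0, with a median of -0.36. For uMT against AID KO the 5 dropped to 0 or 1 without any 1 of the 8 total-cell arrays, with 0 left without any 1 knockout array, the WT PLN replicate 2 array or the WT MLN replicate 2 array, and to 2 without any 1 of the naive arrays. The median of the list was -0.39 in PLN and -0.40 in MLN when AID KO was set against WT within a slide, with 17 and 22 of 25 genes lower. For uMT it was 0.02 in PLN and -0.07 in MLN.

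The kinases themselves differed little. Of 8 MAP kinases tested of 10, 0 passed in any of the 6 comparisons in the limma fit, and the 2 lowest adjusted p for AID KO against WT were those of Mapk9, which encodes a JNK (0.16 ± 0.08 SE, adjusted p = 0.450), and Mapk11, which encodes a p38 (-0.22 ± 0.13 SE, adjusted p = 0.539). Of 7 MAP kinase kinases, 0 passed in any comparison, and the medians lay between -0.08 and 0.02. Of 24 genes upstream of them, 1 passed: Rasgrp4, an activator of Ras, was higher in MLN than in PLN (1.13 ± 0.07 SE, adjusted p = 0.0055), and it passed in 15 of 22 other settings. For AID KO against WT, Sos1, an exchange factor that activates Ras, stood above WT without passing (0.39 ± 0.08 SE, adjusted p = 0.0882).

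Of 16 other feedback inhibitors tested of 19, 1 passed: Errfi1, an inhibitor of EGF receptor signalling, fell in the arrays labelled AID KO (-0.98 ± 0.11 SE, adjusted p = 0.0301) and stood at -0.51 ± 0.11 SE in uMT (adjusted p = 0.151). Its AID KO call passed in 8 of 22 other settings. The median of these inhibitors for AID KO against WT was -0.06. Of 9 atypical dual-specificity phosphatases tested of 15, which lack the kinase-binding domain of the members, 0 passed in any of the 6 comparisons, and the median for AID KO against WT was 0.11. Dusp13 was at least 2.49-fold higher in naive uMT than in naive AID KO arrays, where it was not well above background (adjusted p = 0.0674).

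**Figure D4:**
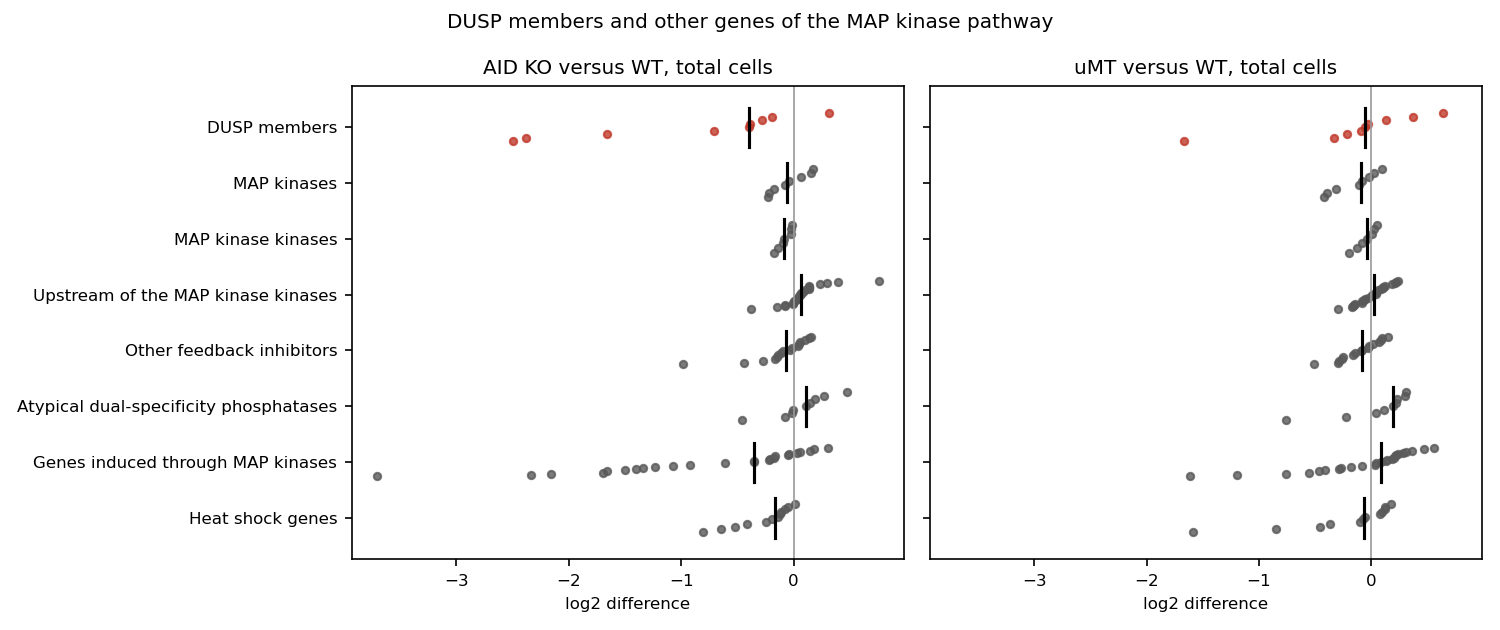
Fitted log2 difference (horizontal axis) for AID KO against WT and uMT against WT in total cells, genotypes as labelled; 1 point is 1 gene, rows are the 9 members and the 7 lists, and black bars are medians. For AID KO the medians are -0.40 for the members, -0.36 for the genes induced through MAP kinases and -0.06 for the MAP kinases.

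Across the 8 total-cell arrays, with the mean of each slide removed, each member other than Dusp8 was set against 11831 genes, and the highest Pearson correlations are given as a description. All points share slides and genotypes. Dusp1 was most like Cd69 (0.99), Jund (0.98), an AP-1 subunit, and Ppp1r15a (0.98), a stress-induced phosphatase subunit. Dusp5 was most like Frat2 (0.99), Cct2 (0.99) and Nasp (0.98), and Dusp4 like Trp53inp2 (0.99), Azin1 (0.99) and Xrn1 (0.98). The genes most like Dusp2 were Eif4a2, Hes5 and Acot2, and for Dusp10 they were Hmgb2, Fem1c and H2ac23. For Dusp6 they were Padi2, Npr2 and Nhlrc2, for Dusp7 Zdhhc16, Pus3 and Slc37a4, and for Dusp16 Clcn3, Tle2 and Foxp1. Between members, Dusp1 and Dusp5 correlated at 0.94 and Dusp4 and Dusp6 at 0.95, while Dusp1 and Dusp6 correlated at 0.32. Dusp7 ran against the other members, from -0.70 with Dusp10 to -0.11 with Dusp16.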

How the data were processed

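Total RNA of each CD8+ T cell sample was hybridised to 1 array. In the scanner output that the authors deposited, per the file headers, is the processed intensity of each spot, background-subtracted by Agilent Feature Extraction 11.0.1.1 (also named in the submitters' processing notes), and other values, flags of 0 or 1. The deposited series matrix holds log2 values. Its 28384 probes followed the scanner files at a correlation of 1.00, and slides differed in median (9.47, 8.59, 8.99), so it served as an alternative.

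Log2 processed intensities were shifted to equal 75th percentiles. Spots with outlier flags, 61 to 342 per array, were left out. Of 56605 probes, 32994 had 1 symbol through RefSeq transcripts (GRCm38.p6), 0 had several and 23611 stayed under their own names. 32103 probes well above background on 2 or more arrays were kept, and the brightest stood for each gene. limma 3.58.1 in R 4.3.3 fitted all 12 arrays together, with slide, site and genotype for total cells and genotype and Sca-1 fraction for naive cells, leaving 4 residual degrees of freedom. Tests were two-sided, adjusted by Benjamini-Hochberg over all features, at 0.05. The script was tested on simulated data.

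Members and lists were chosen with earlier results of these data known. From each pathway list up to 3 genes with the lowest p among those passing (otherwise up to 2) are named with values. Other passing genes are listed without values, except Atf3, chosen after its values were seen. The 9 marker lists served as checks. Some results are not reported here. Alternatives were normexp (offset 50, on median signals), quantile normalization, the series matrix, other filters and probe rules, fewer arrays, other slide terms, each array left out and flagged spots kept.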

Additional observations from a re-analysis of the deposited data

Results flagged for a closer look

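In 7 cases every single-array difference of one group ran opposite to every one of the other group, and for 5 of them the difference between the groups was not tested. The arrays labelled AID KO stood below WT and the uMT arrays above WT for Dusp1, with mean differences 2.31 log2 units apart (-2.31), and for Dusp2 (-0.74). For these genes the difference is that of uMT against AID KO, which the fit holds, but the members were chosen with it known and it is given as a description. The site difference of Dusp1 ran down in WT and up in the knockouts, -0.26 apart, and that of Dusp10 likewise, -0.65 apart. The knockout MLN and PLN arrays lay on different slides, unlike the WT pairs. The difference between uMT and AID KO ran up in total cells and down in naive cells for Dusp1 (2.36 apart), Dusp2 (0.91) and Dusp6 (0.61), and the naive arrays lay on a slide of their own. One side of each was small. Fitted values were -0.06 ± 0.12 SE for Dusp1 and -0.15 ± 0.10 SE for Dusp2 in naive cells, and 0.06 ± 0.14 SE for Dusp6 in total cells. All 3 of these have a 95% interval that holds 0.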

How the results depend on the processing

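The 27 differences of members that were tested were refitted 552 times in all. 0 passed at any setting (lowest adjusted p 0.158, Dusp16 in naive cells without the uMT Sca1m array), and 531 kept their sign. Total and naive cells had separate terms in the fit, so leaving out an array of one cannot change an estimate in the other. Part of the kept signs was therefore fixed in advance. For AID KO against WT, all 9 members kept their sign in every setting run, which includes settings of that kind. Among the 27 tested differences, these estimates turned sign with other processing. Dusp8 between MLN and PLN was -0.44 in the series matrix and -0.24 as the mean of both probes. Dusp8 between naive genotypes was -0.076 with normexp, -0.0039 in the series matrix and -0.18 as the mean of both probes. Dusp4 between Sca-1 fractions was 0.86 in the series matrix and 0.87 with flagged spots kept, a setting added after seeing the data. With each array left out in turn, the ranges of tested differences that crossed 0 were -0.0013 to 0.13 for Dusp1 between sites, -0.16 to 0.061 for Dusp7 between sites, -0.17 to 0.36 for Dusp8 between sites, -0.11 to 0.29 for Dusp16 between Sca-1 fractions, -0.25 to 0.19 for Dusp7 between naive genotypes, -0.12 to 0.18 for Dusp8 between naive genotypes and -0.10 to 0.18 for Dusp10 between naive genotypes. For uMT against WT the range crossed 0 for Dusp7 (-0.12 to 0.38), Dusp8 (-0.63 to 0.57) and Dusp10 (-0.51 to 0.33). For uMT against AID KO in total cells it crossed 0 for Dusp6 (-0.095 to 0.22), Dusp7 (-0.43 to 0.073), Dusp8 (-0.34 to 0.85) and Dusp16 (-0.14 to 0.092). With other processing, Dusp5 and Dusp8 in uMT against WT and Dusp8 and Dusp16 in uMT against AID KO also changed sign.

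The number of members past the threshold was 3 for AID KO against WT (0 with slide and site as a block, 0 to 3 with 1 array left out), 0 for uMT against WT (1 with normexp and 1 with probes well above background on all total-cell arrays, 0 to 0 with 1 array left out) and 2 for uMT against AID KO (1 with no slide term, 0 to 2 with 1 array left out). Of the genes induced through MAP kinases, 10 fell for AID KO against WT (2 with no filter on dim probes, 0 with the block, 0 to 10 with 1 array left out), and 5 were higher in uMT than in AID KO (9 with normexp, 0 with no filter, 8 with probes well above background on all total-cell arrays, 2 with the total-cell arrays alone, 2 with no slide term, 0 to 2 with 1 array left out). Over all features, AID KO against WT gave 59 higher and 171 lower, and 179 and 244 in the series matrix. Its total of 230 ranged from 1 (slide and site as a block, or without the AID KO PLN array) to 537 (probes well above background on all total-cell arrays). Other totals were 27 for site (0 to 81), 9 for uMT against WT (0 to 67), 81 for uMT against AID KO (1 to 185), 4 for Sca-1 (0 to 173) and 90 for naive genotype (0 to 213), the last split into 43 higher and 47 lower, and into 6 and 4 in the series matrix. The labels give no shared replicate numbers, but the titles name the matched WT array of each PLN knockout array, and the block of slide and site pairs each knockout array with the WT array of its slide and site. For MLN against PLN, slide and genotype class as a block left 0 of the 27 features and 0 members past the threshold. Dusp8 is limited by low signal, by the spread between WT arrays and by the disagreement of its probes.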
